A study of Mus musculus with 24 samples.

Results

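The SOX2, SOX9 and SOX17 motif constructs are 6 DNA fragments, a fragment with the wild-type motif (WT) and a fragment with its scrambled version (Sc) for each of the 3 transcription factors. They were chosen by the names that the deposited methylation tables give to their fragments, and they make up 6 of the 62 fragments in those tables. Of the 62 fragments, 52 form 26 pairs of a WT and an Sc motif, and these 26 pairs are the background against which the 3 SOX pairs are read. The sequences of the motifs are in none of the deposited files, so none is shown.

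The study placed each motif in the middle of FR1, a bacterial DNA fragment of medium CpG density, inserted the constructs as a pool at a single site of the mouse genome, and read the methylation of the surrounding CpGs by bisulfite sequencing (Hi-TransMet). The question was which motifs lower the DNA methylation around them. Embryonic stem cells (ESCs) of strain C57BL/6 X 129S5 received FR1 either unmethylated (−SssI) or methylated beforehand with the bacterial CpG methyltransferase SssI (+SssI), and the neuronal progenitors (NPs) were differentiated from these ESCs. ESCs with a triple knockout of TET1, TET2 and TET3 (TET TKO) received FR1 in the +SssI condition only. Their strain was C57BL/6 X 129/sv, so genotype and strain cannot be told apart in any comparison with them. In RNA-seq there were 3 libraries each of wild type ESCs, wild type NPs and TETTKO ESCs.

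SOX proteins bind DNA through an HMG box, which contacts the minor groove and bends the helix, and family members recognise closely related core sequences. SOX2 keeps stem cells pluripotent together with OCT4 and is also active in neural progenitors. SOX9 acts in neural stem cells, glia and cartilage, and SOX17 acts in endoderm and in blood vessels.

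The study pooled the biological and technical replicates of a condition, and the labels do not say which reads belong to which replicate. Each condition is therefore used as 1 pool, whose table holds between 3 and 9 numbered sets of reads, here called runs. The runs stand apart from each other. In ESCs −SssI, Sc fragments upstream of the motif averaged 36.4% methylation in run 4 and 78.7% in run 1, and in ESCs +SssI they averaged 50.9% in run 4 and 74.0% in run 5. Several SOX fragments had their reads in different runs for WT and Sc. In NPs −SssI, runs 9, 10 and 2 held the fragments in like proportions (correlations of read numbers over 53 fragments from 0.987 to 0.994), and in NPs +SssI runs 9 and 2 did (0.986 over 38 fragments). So did runs 5, 1 and 2 in ESCs −SssI (0.975 to 0.997). These are here called look-alike runs. Whether such runs are separate samples cannot be told from the tables.

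The 6 SOX fragments held 53438 CpG calls in ESCs −SssI, 22719 in ESCs +SssI, 43349 in NPs −SssI, 35365 in NPs +SssI and 17335 in TET TKO +SssI. A WT fragment had a median of 48 to 616 reads per CpG. Each fragment was read in an upstream amplicon with 18 CpGs and a downstream amplicon with 5. Positions are counted from the motif, and the CpGs lie between −291 and −32 bp and between 37 and 252 bp. A fragment is described by its mean methylation over these 23 CpGs. The difference is WT minus Sc in percentage points, with its 95% interval as ±, and was tested by a Wald chi-square test on reads with adjustment over the 26 motifs. A CpG was called lower or higher with a difference of at least 10 points and an adjusted p under 0.05 in Fisher's exact test. A hypomethylated region (HMR) is a run of at least 3 consecutive CpGs called lower that spans more than 50 bp. All intervals cover counting error only, and all tests on reads compare pooled libraries and not conditions.

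In ESCs −SssI all 3 SOX motifs lay in less methylated FR1 than their Sc versions, and the SOX9 motif had the largest difference of the 3. Methylation was 26.5% around SOX9 WT (95% Wilson interval 18.8 to 36.0) and 69.7% around SOX9 Sc, a difference of −43.2 points ± 9.39 (adjusted p = 8.57e-19, chi-square). It was 39.3% (27.0 to 53.1) and 58.0% around SOX2 WT and Sc, a difference of −18.7 points ± 14 (adjusted p = 0.0125, chi-square). Around SOX17 it was 56.0% (52.0 to 59.8) and 71.4%, a difference of −15.4 points ± 6.70 (adjusted p = 1.16e-05, chi-square). The median of the 3 differences was −18.7 points, against −12.1 points over the 26 motifs. A fragment difference in either direction was called at all 3 SOX motifs, where 76.9% of the 26 motifs had one. All 3 also held an HMR, where 53.8% of motifs did. Of their 69 CpGs, 46 were called lower, a share of 66.7% against 48.4% of the CpGs of all motifs. Another 6 were called higher, a share of 8.70% against 23.7%. Without run 7 the SOX2 difference was −8.89 points and no longer called, with 5 CpGs called lower and 0 HMRs. Its upstream CpGs alone remained there, since SOX2 Sc then had too few reads downstream. SOX17 had 0 HMRs without run 5, and also when runs 5, 1 and 2, which held the fragments in like proportions, were counted as 1 (chosen after seeing the data).

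The 3 profiles in ESCs −SssI had different shapes along FR1. At SOX9 every CpG of the upstream amplicon was called lower, which makes an HMR from −291 to −32 bp with a mean difference of −56.9 points. Next to the motif, SOX9 WT and Sc had 17.7% and 85.6% at −32 bp but 7.35% and 19.1% at 37 bp, and at 252 bp the order was turned, with 75.0% and 22.5%. The downstream mean of SOX9 was 6.31 points ± 14.7. SOX2 had gaps between its lowered CpGs. Its largest difference was −71.0 points at −235 bp, with 12% for WT and 83.0% for Sc, while WT exceeded Sc by 25.8 points at −291 bp and by 14.8 points at −32 bp. Downstream of SOX2 the mean difference was −27.2 points ± 11 (adjusted p = 6.11e-06, chi-square), and 4 of the 5 CpGs were called lower. At SOX17 the HMR reached from −275 to −121 bp with a mean of −24.4 points, and the difference at −32 bp was 1.58 points. SOX17 downstream differed by −1.42 points ± 23.2, with a median of 19 reads for Sc.

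These ESC −SssI values rest on fragments read in different runs. All reads of SOX2 WT came from run 4, and SOX2 Sc was read mainly in run 7 (59.0% upstream) and thinly in run 6 (44.4%). SOX2 therefore has no run in which both can be compared, and motif and run cannot be told apart. For SOX9 upstream the WT reads lay in run 4 (23.1%) and the Sc reads in runs 3, 5, 1 and 2 (88.9%, 81.1%, 81.2% and 85.6%), so there too motif and run cannot be told apart. Most upstream reads of SOX17 WT (a median of 449 per CpG) came from run 7, where SOX17 Sc had 0, and downstream no run held enough reads of both. In the runs that held both SOX17 fragments upstream, the difference was −15.6 points ± 31.2 in run 4, 1.45 ± 13.4 in run 5 and 2.65 ± 12.4 in run 1, and over these runs together the difference was 0.151 points ± 8.08. Runs 5 and 1 are look-alike runs, and both are counted in this last value. The upstream level of SOX17 WT itself was 24.8% in run 4, 57.4% in run 7, 81.6% in run 5 and 81.1% in run 1.

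A reference that does not need both fragments of a pair in 1 run is the mean of all Sc fragments in the runs where a WT fragment was read, weighted by its reads. This reference was chosen after seeing the data and carries no test. Against it, SOX2 WT in ESCs −SssI differed by 1.63 points, SOX9 WT by −12.3 and SOX17 WT by −11.7, and the median over the 26 motifs was −5.58. The SOX9 difference was thus smaller than against its own Sc fragment, and the SOX2 difference turned its sign.

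In premethylated ESCs, SOX17 had the largest difference of the 3 motifs. SOX17 WT had 14.6% methylation (7.26 to 27.2) and Sc 64.2%, a difference of −49.6 points ± 11 (adjusted p = 9.16e-18, chi-square). SOX9 had 50.1% (42.5 to 57.7) and 78.2%, a difference of −28.1 points ± 11.6 (adjusted p = 5.71e-06, chi-square). SOX2 had 54.0% (40.4 to 67.1) and 71.3%, a difference of −17.3 points ± 16.4 that was not called (adjusted p = 0.0730, chi-square). Of the 3 SOX motifs, 2 had a fragment difference in either direction, against 42.3% of all motifs, and 2 had an HMR, against 57.7%. Of the 69 CpGs of the 3 pairs, 50 were called lower, a share of 72.5% against 50% of all CpGs. Another 2 were called higher, a share of 2.90% against 12.2%. The median of the 3 differences was −28.1 points, against −12.2 over the 26 motifs. Without run 5 the SOX9 difference was −21.4 points and not called, with 0 HMRs. The SOX2 difference without run 5 was −23.2 points and called, with 3 CpGs called lower, but it rests on the downstream CpGs alone. Over all runs these CpGs gave −1.20 points ± 15.1 for SOX2. Without run 4 the SOX9 difference was −17.5 points, and SOX17 had 2 HMRs in place of 1 and kept its upstream CpGs alone.

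Along FR1 in ESCs +SssI, the SOX17 WT fragment was nearly free of methylation upstream and not downstream. Its CpGs upstream had 2.08% to 12.5%, against 37.4% to 83.4% for Sc, and the largest difference was −75.2 points at −121 bp. Across the motif the level of SOX17 WT rose from 12.5% at −32 bp to 27.3% at 37 bp and 78.3% at 46 bp. The downstream mean difference of SOX17 was −5.37 points ± 21.4. SOX9 had its largest difference next to the motif, with 25.3% for WT and 78.9% for Sc at −32 bp, the end of an HMR that began at −187 bp and averaged −39.4 points. At 151 bp SOX9 WT exceeded Sc by 29.2 points, the only CpG of SOX9 called higher, while the excess of 10.5 points at −208 bp was not called. SOX2 had 13 CpGs called lower without 3 in a row over more than 50 bp. Its difference was lowest at −211 bp (−51.4 points) and highest at 109 bp (22.7 points), and the upstream mean was −21.7 points ± 16.3 (adjusted p = 0.0146, chi-square). That mean sets WT reads of run 4 against Sc reads of run 5, so motif and run cannot be told apart in it.

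Between runs of ESCs +SssI the SOX values moved as well. SOX2 WT was read in run 4 alone, with 52.4% upstream, and SOX2 Sc had enough reads upstream in run 5 alone, with 74.0%. Downstream, SOX2 WT and Sc had 59.8% and 84.5% in run 4, a difference of −24.7 points ± 20.5 (adjusted p = 0.0392, chi-square), with a median of 19 reads for Sc. SOX2 Sc had 54.3% downstream in run 5. Over all runs SOX2 differed downstream by −1.20 points ± 15.1 (adjusted p = 0.901, chi-square). SOX17 WT was read upstream with enough reads only in run 4, at 2.41%, while SOX17 Sc had 40.3%, 83.7%, 37.1% and 72.3% in runs 3, 6, 4 and 5. In run 4 the 2 fragments differed by −34.7 points ± 14.2 upstream and by 8.06 ± 22.4 downstream. SOX9 WT had 11.8% upstream in run 4, 59.0% in run 5 and 69.9% in run 6, and SOX9 differed from Sc by −25.2 points ± 16.4 in run 5 and by −7.92 ± 21.4 in run 6. Downstream, SOX9 differed by 12.5 points ± 28.8 in run 4. Every within-run upstream difference of SOX17 and SOX9 in this pool was thus negative, and smaller than the pooled one. Over runs together and both amplicons, SOX17 differed by −25.4 points ± 13.9 (adjusted p = 0.00127, chi-square) and SOX9 by −12.1 ± 11.9 (adjusted p = 0.0874, chi-square). Against the same-run mean of Sc fragments, SOX17 WT differed by −42.4 points, SOX9 WT by −15.1 and SOX2 WT by −0.0958, with a median of −7.80 over the 26 motifs.

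In NPs without premethylation FR1 was highly methylated, and the SOX motifs differed from their Sc versions by less than 10 points. SOX2 WT had 83.8% (79.2 to 87.5) and Sc 91.2%, a difference of −7.41 points ± 4.80 (adjusted p = 0.00721, chi-square). SOX9 WT had 82.4% (76.1 to 87.4) and Sc 92.0%, a difference of −9.58 points ± 5.99 (adjusted p = 0.00559, chi-square). SOX17 WT had 92.8% (85.8 to 96.5) and Sc 90.8%, a difference of 2.07 points ± 8.98 (adjusted p = 0.677, chi-square). Thus 2 of the 3 SOX motifs had a fragment difference in either direction, against 38.5% of all motifs, and 2 had an HMR, against 34.6%. Of the 69 CpGs, 18 were called lower, a share of 26.1% against 31.3% of all CpGs. Another 4 were called higher, a share of 5.80% against 13.5%. The median of the 3 differences was −7.41 points, against −2.12 over the 26 motifs. Without run 9, SOX9 differed by −4.36 points and was not called, with 4 CpGs called lower and 0 HMRs. Nearly all downstream reads of SOX9 WT lay in run 9, so the upstream CpGs alone remained. The downstream HMR could not be called without it, so this says nothing about whether it repeats. Without run 8 the SOX17 difference was −3.23 points, with 3 CpGs called lower, and without run 11 it was 10.1 points. With the look-alike runs 9, 10 and 2 counted once, neither SOX2 (−7.62) nor SOX9 (−8.95) was called.

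The HMRs of SOX2 and SOX9 in NPs −SssI lay on different sides of the motif. SOX2 had its HMR upstream, from −187 to −121 bp with a mean of −16.4 points, and its levels there were 73.8% to 88.0% for WT and 90.0% to 100% for Sc. Its largest difference, −30.5 points, lay at 37 bp, the only downstream CpG of SOX2 called lower. Of the 8 CpGs called lower at SOX9, 4 lay upstream and 4 downstream. SOX9 had its HMR downstream, from 37 to 151 bp with a mean of −39.1 points, for example 53.8% for WT and 99.2% for Sc at 37 bp. Upstream, SOX9 differed by −3.30 points ± 5.14 (adjusted p = 0.364, chi-square), with single CpGs from −33.5 points at −242 bp to 18.4 points at −166 bp. The downstream difference of SOX9 was −32.2 points ± 15.5 (adjusted p = 1.86e-04, chi-square), with a median of 39 reads for WT. SOX17 had 0 CpGs called lower and 2 called higher, by 27.1 points at −166 bp and by 22.5 points at −264 bp.

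The runs of NPs −SssI gave like values for SOX2 upstream. There it differed by −6.95 points ± 9.29 in run 9, −5.96 ± 9.63 in run 10 and −7.83 ± 8.31 in run 2, which are the look-alike runs, and over runs together by −9.27 points ± 4.93 with both amplicons. Downstream SOX2 could be compared in run 9 alone, at −17.3 points ± 11.6, against −4.12 ± 9.49 over all runs. SOX9 differed upstream by 1.62, −1.60 and −1.49 points in the same runs, and downstream it could be compared only in run 9, at −27.1 points ± 17.7. SOX17 could be compared only in run 8, with 9.30 points ± 18.9. Against the same-run mean of Sc fragments the differences were −6.19 points for SOX2, −7.63 for SOX9 and 3.77 for SOX17, with a median of −1.12 over the 26 motifs.

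In premethylated NPs the SOX17 motif alone of the 3 had a called difference over the whole fragment. SOX17 WT had 37.1% methylation (29.5 to 45.4) and Sc 83.8%, a difference of −46.7 points ± 8.68 (adjusted p = 4.81e-25, chi-square), the second lowest of the 26 motifs. SOX2 WT had 85.2% (77.6 to 90.6) and Sc 81.6%, a difference of 3.63 points ± 8.01 (adjusted p = 0.486, chi-square). SOX9 WT had 82.8% (72.1 to 90.0) and Sc 85.1%, a difference of −2.21 points ± 10.2 (adjusted p = 0.788, chi-square). A fragment difference in either direction was thus called at 1 of 3 SOX motifs, against 38.5% of all motifs, and an HMR at 2, against 46.2%. The 3 pairs had 32 CpGs called lower, of which 22 were at SOX17, a share of 46.4% against 36.2% of all CpGs. Another 16 were called higher, all at SOX2 and SOX9, a share of 23.2% against 10.4%. The median of the 3 differences was −2.21 points, against −3.63 over the 26 motifs. Without run 10 the SOX2 difference was 9.83 points and called, and without run 2 it was −0.0323 points, with 7 CpGs called lower. Without run 1 or run 7 the SOX9 difference turned its sign, to 0.922 and 0.00746 points, and without run 8 it was −7.67 points.

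The SOX17 profile in NPs +SssI was low on both sides of the motif. Its HMR ran from −291 to 151 bp with 22 CpGs and a mean of −49.0 points. WT fell to 2.16% at −178 bp, where Sc had 88.3%, and the difference of −86.1 points there was the largest of the SOX17 profile. Next to the motif, SOX17 WT and Sc had 50% and 92.8% at −32 bp and 23.1% and 84.7% at 37 bp, and the only CpG not called lower lay at 252 bp, with 5.61 points. The upstream mean was −48.7 points ± 8.59 and the downstream mean −39.3 points ± 10.4. SOX9 again differed downstream, by −30.4 points ± 9.19 (adjusted p = 3.48e-10, chi-square), with an HMR from 37 to 109 bp, and upstream by 5.61 points ± 8.44. Single CpGs of SOX9 upstream ranged from −49.6 points at −84 bp to 25.2 points at −166 bp. SOX2 differed downstream by 8.62 points ± 7.47 (adjusted p = 0.0361, chi-square), and its CpGs ranged from −16.2 points at −148 bp to 32.4 points at −84 bp.

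The SOX17 value in NPs +SssI was alike in the runs that held both fragments, of which 9 and 2 are look-alike runs. Upstream it was −54.7 points ± 18.4 in run 9, −47.0 ± 19.5 in run 10 and −52.6 ± 12.3 in run 2, and downstream it was −36.9, −43.6 and −42.4 points. Over runs together the difference was −49.4 points ± 8.32, and leaving out any run gave values from −49.5 to −43.9. SOX17 Sc itself ranged upstream from 56.7% in run 1 to 93.6% in run 6. SOX9 WT downstream depended on the run, with 80.0%, 18.3%, 27.5% and 91.2% in runs 6, 11, 1 and 8. The only run with both SOX9 fragments, run 8, gave 12.1 points ± 19.8 downstream, against −30.4 over all runs. SOX2 WT upstream had 92.8%, 73.9% and 92.4% in runs 9, 10 and 2, and SOX2 Sc upstream was read in runs 1 and 8. Downstream the only run with both SOX2 fragments, run 2, gave 4.41 points ± 22.5 (adjusted p = 0.742, chi-square), against 8.62 over all runs. Against the same-run mean of Sc fragments, SOX17 WT differed by −47.7 points, SOX2 WT by −0.425 and SOX9 WT by 2.47, with a median of −0.0405 over 25 motifs.

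In TET TKO ESCs, which lack the enzymes that oxidise methylcytosine, SOX2 was the 1 SOX motif with lower methylation around WT. SOX2 WT had 71.6% (64.0 to 78.1) and Sc 87.2%, a difference of −15.6 points ± 9.06 (adjusted p = 0.00322, chi-square). SOX9 WT was almost fully methylated, with 99.0% (95.5 to 99.8) against 85.8% for Sc, a difference of 13.2 points ± 6.06 (adjusted p = 1.71e-04, chi-square). SOX17 WT had 96.8% (92.5 to 98.7) and Sc 85.8%, a difference of 11 points ± 15.7 (adjusted p = 0.284, chi-square), with a median of 23 reads for Sc. A fragment difference in either direction was called at 2 SOX motifs, against 34.6% of all motifs, and an HMR at 1, against 26.9%. Of the 69 CpGs, 13 were called lower, all at SOX2, a share of 18.8% against 21.3% of all CpGs. Another 21 were called higher, a share of 30.4% against 22.9%. The median of the 3 differences was 11 points, against 1.09 over the 26 motifs. Without run 10 only the downstream CpGs remained, where SOX9 was at 5.34 points and not called, SOX17 was at 1.71 points, and SOX2 had 4 CpGs called lower.

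The SOX2 profile in TET TKO had its HMR across the motif, from −32 to 151 bp with 5 CpGs and a mean of −22.9 points. SOX2 WT and Sc had 60.8% and 87.2% at −32 bp and 81.0% and 99.1% at 37 bp. The largest difference lay outside this region, at −208 bp, with 37.0% for WT and 90.9% for Sc. SOX9 WT was at 90.1% or more at every CpG upstream, and its largest excess over Sc was 55.0 points at −148 bp, where Sc had 45.0%. SOX17 exceeded Sc at each upstream CpG, by 0.304 to 55.8 points, the latter at −235 bp.

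In this pool nearly all upstream reads came from run 10, so the upstream values are those of a single run. SOX2 differed downstream by −17.4 points ± 9.12 in run 10 and by −17.3 ± 8.41 in run 11. SOX9 differed downstream by 7.75 points ± 9.62 and 8.12 ± 9.80 in these runs. Both motifs thus had like values in the 2 runs that could be compared. The Sc fragments of all motifs also had like downstream means in runs 10 and 11, 88.6% and 87.9%. Look-alike runs were sought in upstream reads, of which run 11 had nearly none. Whether these 2 runs are separate samples cannot be told. Against the same-run mean of Sc fragments the differences were −16.7 points for SOX2, 10.7 for SOX9 and 7.96 for SOX17, with a median of 2.37 over the 26 motifs.

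The 3 SOX motifs were then compared with each other, as the difference between their WT minus Sc differences, with adjustment over all 325 pairs of motifs in a pool. In ESCs −SssI 2 of the 3 SOX pairs differed, against 75.1% of all pairs. SOX9 was lower than SOX2 (SOX2 minus SOX9 24.5 points ± 16.8, adjusted p = 0.00671, chi-square) and lower than SOX17 (−27.7 ± 11.5, adjusted p = 5.22e-06, chi-square). SOX2 minus SOX17 was −3.26 points ± 15.5, and it turned positive without run 5 (0.870) or run 7 (7.64). Without run 5 SOX17 kept its upstream CpGs alone, so unlike CpGs were compared. Without run 7 both motifs kept their upstream CpGs alone. In ESCs +SssI 2 of 3 pairs differed, against 57.8%, and there SOX17 was lower than SOX2 (32.3 ± 19.8, adjusted p = 0.00319, chi-square) and lower than SOX9 (21.5 ± 16, adjusted p = 0.0168, chi-square). The first of these was not called without run 5 (14.5), and the second not without run 6 (7.99) or run 5 (16.3), and was 35.4 without run 4. SOX2 minus SOX9 in this pool was 10.8 points ± 20.1 and turned to −1.74 without run 5. Without run 5 SOX2 kept its downstream CpGs alone, and without run 4 SOX17 kept its upstream ones alone. The values 14.5, −1.74 and 35.4 therefore compare unlike CpGs.

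In NPs −SssI 0 of the 3 SOX pairs differed, against 48.6% of all pairs, with SOX2 minus SOX9 at 2.17 points ± 7.68, SOX2 minus SOX17 at −9.48 ± 10.2 and SOX9 minus SOX17 at −11.6 ± 10.8. Without run 9 of this pool SOX2 minus SOX17 was −11.6 points and called, and SOX2 minus SOX9 was −4.30. All 3 motifs kept their upstream CpGs alone there. With each run left out in turn, SOX2 minus SOX17 lay between −17.5 and −4.19 and SOX9 minus SOX17 between −18.1 (without run 11) and −6.24 (without run 8). Premethylated NPs set SOX17 apart. There 2 of 3 pairs differed, against 53.8%, by 50.3 points ± 11.8 for SOX2 minus SOX17 (adjusted p = 5.47e-16, chi-square) and 44.5 ± 13.4 for SOX9 minus SOX17 (adjusted p = 4.39e-10, chi-square). SOX2 minus SOX9 was 5.84 points ± 12.9, and 1.38 to 12.2 with a run left out. In TET TKO the motif set apart was SOX2, and 2 of 3 pairs differed, against 42.8%. SOX2 minus SOX9 was −28.8 points ± 10.9 (adjusted p = 5.24e-06, chi-square), SOX2 minus SOX17 was −26.5 ± 18.1 (adjusted p = 0.0144, chi-square), and SOX9 minus SOX17 was 2.24 ± 16.8.

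SOX2 was also set beside the OCT4SOX2 motif, a composite element bound by both factors, and the OCT4 motif. OCT4SOX2 had the larger reduction in ESCs −SssI (SOX2 minus OCT4SOX2 26.1 points ± 18.6, adjusted p = 0.00880, chi-square), and likewise in ESCs +SssI (46.9 ± 17.2, adjusted p = 3.49e-07, chi-square). In NPs the same difference was 28.9 points ± 6.77 under −SssI (adjusted p = 3.87e-16, chi-square) and 29.6 ± 10.9 under +SssI (adjusted p = 5.25e-07, chi-square). In TET TKO it was 0.931 points ± 14.2. These comparisons add up all runs of a pool. Over all runs, the reduction at the composite motif was thus the larger one by a called difference in 4 pools. Within runs OCT4SOX2 WT minus Sc was −43.1 points ± 16.9 in ESCs −SssI (upstream alone) and −61.3 ± 18.2 in NPs −SssI (downstream alone). It had no value within runs in ESCs +SssI or NPs +SssI, so there motif and run cannot be told apart. Without run 7 SOX2 minus OCT4SOX2 was 40.1 points in ESCs −SssI, with the upstream CpGs of SOX2 alone, and 56.2 in NPs −SssI. In ESCs +SssI the difference was 29.8 points and not called without run 5, and in TET TKO it was −37.4 points and called without run 10, where only downstream CpGs remained. Without run 5 of ESCs +SssI, SOX2 kept its downstream CpGs alone as well. SOX2 was lower than OCT4 by a called difference in ESCs −SssI (−37.2 points ± 19.1), NPs −SssI (−14.6 ± 6.98) and TET TKO (−22.5 ± 13.5), with adjusted p of 2.49e-04, 1.28e-04 and 0.00477 (chi-square). Within runs OCT4 WT minus Sc was 8.11 points ± 19.3 in ESCs −SssI and 3.82 ± 3.94 in NPs −SssI, neither called. SOX2 had no value within runs in ESCs −SssI, and −9.27 ± 4.93 in NPs −SssI. In ESCs +SssI SOX2 minus OCT4 was −2.66 points ± 24.1, and it was 0.453 without run 6. It was 13.4 without run 5, with the downstream CpGs of SOX2 alone. In NPs +SssI it was 9.37 points ± 8.89, and it was called without run 10 (16.7) and without run 1 (12), and was 5.46 without run 2.

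Over the 18 upstream CpGs, which the fragments share, the Sc levels of different SOX constructs in ESCs −SssI resembled each other more than the differences did. The correlation of Sc levels across CpGs was 0.806 for SOX2 and SOX9, 0.712 for SOX2 and SOX17 and 0.681 for SOX9 and SOX17. For the WT minus Sc differences the same correlations were −0.00241, 0.312 and −0.0128. The CpGs share sequence, molecules and run, so these values are descriptions without a test. In TET TKO the WT levels of SOX2 and SOX17 had a correlation of 0.794 across the same CpGs, the Sc levels 0.0670 and the differences 0.517. In the same order the values were −0.264, 0.416 and −0.499 for SOX2 and SOX9, and −0.185, −0.127 and −0.394 for SOX9 and SOX17. Low CpGs of SOX2 and SOX17 WT in TET TKO included −208 bp with 37.0% for SOX2 and 83.9% for SOX17, and −166 bp with 37.7% and 81.8%.

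The pools were then compared by motif, which asks whether the SOX differences differ with differentiation, premethylation or loss of TET. These comparisons of ESC, NP and TET TKO pools share pools and are not independent of each other. Between NPs −SssI and ESCs −SssI the difference changed at 2 of 3 SOX motifs, against 50% of all motifs, by 33.6 points ± 11.1 at SOX9 (adjusted p = 1.45e-08, chi-square) and 17.5 ± 11.2 at SOX17 (adjusted p = 0.00437, chi-square). At SOX2 it was 11.3 points ± 14.8, and 1.48 without run 7 of the ESC pool, which then kept the upstream CpGs of SOX2 alone. Within runs the SOX9 difference was 6.36 points ± 13.7 in ESCs (downstream alone) and −6.37 ± 6.98 in NPs (both amplicons). The SOX17 difference within runs, upstream alone, was 0.151 ± 8.08 and 9.30 ± 17.0. None of these values was called. Over all runs the SOX9 difference was −56.9 points upstream and 6.31 downstream in ESCs, and −3.30 and −32.2 in NPs. Upstream and downstream of SOX9 thus moved in opposite directions. The SOX17 change was not called without run 8 of the NP pool (12.2). With premethylation it changed at 2 of 3, against 53.8%, by 20.9 points ± 18.3 at SOX2 (adjusted p = 0.0464, chi-square) and 25.9 ± 15.4 at SOX9 (adjusted p = 0.00305, chi-square). The SOX2 change was not called without run 7 of the ESC pool (20.8) or without run 9, 1, 2 or 8 of the NP pool (19.2, 21.2, 17.2 and 20.6). The SOX9 change was not called without run 4 or 5 of the ESC pool (15.3 and 19.2) or run 7 of the NP pool (28.1). Within runs SOX9 was at −12.1 points ± 11.9 in ESCs and 12.1 ± 14.8 in NPs (downstream alone). SOX2 within runs, downstream alone, was at −24.7 ± 20.5 and 4.41 ± 22.5. At SOX17 the 2 pools differed by 2.88 points ± 14, which was not called, with −8.94 to 6.22 when a run was left out (the former without run 5 of the ESC pool). Within runs the SOX17 difference was −25.4 points ± 13.9 in ESCs and −49.4 ± 8.32 in NPs, and no difference between within-run values of 2 pools was tested.

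Between TET TKO and wild type ESCs, both +SssI, the difference changed at 2 of 3 SOX motifs, against 53.8%. The changes were 60.5 points ± 19.2 at SOX17 and 41.3 ± 13.1 at SOX9, each with an adjusted p of 2.71e-09 (chi-square). SOX9 WT was less methylated than Sc in the wild type pool and more methylated in TET TKO, and the first of these was not called without run 5 of its pool (−21.4) or within runs (−12.1), the second not without run 10 (5.34). SOX17 WT was less methylated than Sc in the wild type pool, and its TET TKO value of 11 points ± 15.7 was not called and was 1.71 without run 10. SOX2 differed by 1.67 points ± 18.7 between these pools (adjusted p = 0.896, chi-square), by −0.356 points without run 10 of TET TKO and by 7.60 without run 5 of the ESC pool. In each of these 2 alternatives, the pool that lost a run kept its downstream CpGs alone, so unlike CpGs were compared. Over all runs, SOX2 downstream was at −1.20 points in ESCs and −17.5 in TET TKO. With each run left out in turn, the SOX17 change (48.7 to 63.8) and the SOX9 change (30.7 to 52.1) kept their calls. Without run 10, however, the downstream CpGs of TET TKO alone were set against all CpGs of the ESC pool. That call therefore says nothing about stability. Over all runs, SOX17 downstream was at −5.37 points in ESCs and 1.64 in TET TKO, and SOX9 at −10.1 and 6.33, none of them called. The change downstream alone was not tested. Within runs SOX17 was at −25.4 points ± 13.9 in ESCs and 11 ± 15.3 in TET TKO, and SOX9 at −12.1 ± 11.9 and 13.6 ± 5.98.

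Between the +SssI and −SssI pools, a change was called at SOX17 and at neither of the other SOX motifs. Between +SssI and −SssI in ESCs, 1 of 3 SOX motifs changed, against 53.8% of all motifs, with −34.1 points ± 12.9 at SOX17 (adjusted p = 1.15e-06, chi-square). At SOX9 the value was 15.1 points ± 14.9 (adjusted p = 0.0817, chi-square), which was called without run 4 of the +SssI pool (25.7) and was 4.25 without run 6. At SOX2 it was 1.44 points ± 21.5, and −8.37 without run 7 of the −SssI pool and −4.50 without run 5 of the +SssI pool. In both cases the pool that lost a run kept 1 amplicon of SOX2 alone, so unlike CpGs were compared. In NPs the same comparison also called 1 of 3, against 34.6%, with −48.7 points ± 12.5 at SOX17 (adjusted p = 5.16e-13, chi-square). The value was 7.37 points ± 11.8 at SOX9 and 11 ± 9.34 at SOX2 (adjusted p = 0.0507, chi-square). The SOX9 value lay between 1.91 (without run 8 of the +SssI pool) and 10.5 (without run 1 of it) with a run left out. The SOX2 value was called without run 6, 9, 11 or 7 of the −SssI pool (12.1, 12.3, 11 and 11.2) or run 10, 11 or 7 of the +SssI pool (17.2, 11.1 and 11). Without run 9 the −SssI pool kept the upstream CpGs of SOX2 alone. With each run left out in turn the SOX17 change kept its call, from −37.5 to −22.3 in ESCs (the latter without run 5 of the +SssI pool) and from −56.7 to −43.4 in NPs. Some left-out runs, such as run 4 of the ESC +SssI pool, took away the downstream CpGs of SOX17. Those calls compare unlike CpGs. Within runs SOX17 was at −25.4 points +SssI and 0.151 −SssI in ESCs, and at −49.4 and 9.30 in NPs, the −SssI values upstream alone.

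RNA-seq shows which of the 3 factors the cells transcribed. The libraries held 20570050 to 23976914 counts in ESCs, 20519702 to 22132988 in NPs and 80704741 to 93210102 in TETTKO. Levels are RPKM with TMM scaling, and edgeR called genes with a fold change of at least 3 and an adjusted p under 0.001. Sox2 (ENSMUSG00000074637) had 62.5, 49.2 and 50.3 RPKM in the NP libraries, 54.0 ± 7.40 (SD, n = 3), against 226 ± 16 (SD, n = 3) in ESCs. Sox2 was thus 4.20-fold lower in NPs (log2 −2.07, adjusted p = 5.05e-06), where 9.98% of 15197 tested genes were called lower. In TETTKO it had 224, 204 and 276 RPKM, 235 ± 37.1 (SD, n = 3), which overlaps the ESC libraries. The log2 fold change was 0.04 (adjusted p = 0.828), and it was −0.12 with library sizes alone, −0.0703 with DESeq2 and −0.0901 without TETTKO replicate 3.

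Sox9 and Sox17 were close to absent from ESCs and present in NPs. Sox9 (ENSMUSG00000000567) had 22.7, 21.8 and 17.3 RPKM in NPs, 20.6 ± 2.90 (SD, n = 3), against 0.0578 ± 0.0268 (SD, n = 3) in ESCs, where each library held 4 to 8 counts. The log2 fold change was 8.45 (adjusted p = 3.10e-07). Sox17 (ENSMUSG00000025902) had 2.77, 4.27 and 4.44 RPKM in NPs, 3.83 ± 0.917 (SD, n = 3), against 0.119 ± 0.0718 (SD, n = 3) in ESCs with 8 to 21 counts, and its log2 fold change was 5.0 (adjusted p = 1.83e-05). Thus 2 of the 3 factor genes were called higher in NPs, against 12.4% of genes tested. In TETTKO, Sox9 had 0.160, 0.193 and 0.306 RPKM and Sox17 0.130, 0.0763 and 0.129, so neither reached the filter of 1 RPKM and neither was tested. Without the filter their log2 fold changes were 1.92 and −0.09. In bulk libraries fewer cells of a type and less RNA per cell cannot be told apart. Within each NP library the order of levels was Sox2, then Sox9, then Sox17.

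In NPs the order of the factor levels was not the order of the +SssI methylation differences. There the motif with the largest reduction was that of SOX17, the factor with the lowest RPKM of the 3, while SOX2 and SOX9 had no called difference over the fragment. In NPs −SssI, SOX2 (−7.41 points) and SOX9 (−9.58) had called differences and SOX17 (2.07) had none. Neither SOX2 nor SOX9 was called there with look-alike runs counted once. In ESCs, where Sox9 and Sox17 were at 0.0578 and 0.119 RPKM, both of their motifs had called differences in both conditions over all runs. Within runs these were called for SOX17 +SssI (−25.4 points ± 13.9) and not for SOX9 +SssI (−12.1 ± 11.9), SOX17 −SssI (0.151 ± 8.08, upstream CpGs alone) or SOX9 −SssI (6.36 ± 13.7, downstream CpGs alone). Sox2 had the highest level of the 3 factors in ESCs, NPs and TETTKO, while the SOX2 motif had the lowest difference of the 3 in TET TKO. Over all runs it had the smallest in size in ESCs +SssI (−17.3, not called). Within runs the SOX2 value there was −24.7 ± 20.5 and called, from downstream CpGs alone, which is larger in size than that of SOX9. Whether any of the 3 proteins bound the constructs was not measured in these data.

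Other SOX proteins recognise related motifs, so the remaining 17 Sox genes were listed as well. In NPs 10 of them passed the filter, of which 5 were called higher, against 12.4% of all genes tested, and 1 lower, against 9.98%. The other 4 (Sox7, Sox12, Sox13 and Sox21) were not called. Sox3 and Sox1, which share the neural progenitor roles of SOX2, rose from 2.14 ± 0.466 to 61.5 ± 27.1 RPKM and from 0.612 ± 0.131 to 11.9 ± 4.21 (SD, n = 3 per group). Sox11 and Sox4, both active in neuronal differentiation, rose from 1.44 ± 0.169 to 49.4 ± 12.3 RPKM and from 3.00 ± 0.372 to 36.0 ± 11.4. Sox6 rose from 0.0493 ± 0.00991 to 1.72 ± 0.292 RPKM. Sox15 fell from 26.3 ± 5.43 to 0.695 ± 0.888 RPKM. Sox12 and Sox13 were at 17.2 ± 0.447 and 15.7 ± 0.850 RPKM in ESCs and at 32.1 ± 10.3 and 20.3 ± 4.85 in NPs, and Sox21 and Sox7 were at 4.96 ± 2.75 and 1.27 ± 0.495 in NPs. The summed level of the 17 genes was 66.4, 66.5 and 77.8 RPKM in the ESC libraries and 301, 175 and 188 in the NP libraries, led by Sox15 in ESCs and Sox3 in NPs. So NPs held more transcripts of other Sox genes than of Sox2, and ESCs held fewer.

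In TETTKO 10 of the 17 genes passed the filter and edgeR called 0 of them, against 1.1% of 13939 genes called higher and 1.21% called lower. At an unadjusted p under 0.05 there were 4, and DESeq2 also called 0. With the replicate number as a block 1 was called, as it was without TETTKO replicate 3. Whether the numbers pair TETTKO and ESC libraries cannot be told from the data. Libraries of the same number had correlations from −0.0801 to 0.306 over 3 pairs, with a mean of 0.147, against a mean of −0.0725 for other numbers. In the blocked fit 342 genes were called higher and 332 lower, against 153 and 169 without the block. These counts also moved with single libraries, to 14 and 36 without ESC replicate 1, 18 and 41 without ESC replicate 2, 24 and 50 without ESC replicate 3, 65 and 61 without TETTKO replicate 1, and 91 and 99 without TETTKO replicate 2. The median log2 fold change of all genes was 0.12 with TMM and −0.05 with library sizes alone. Sox15 had 51.4 ± 24.1 RPKM and Sox11 4.61 ± 1.17 in TETTKO, with log2 fold changes of 0.96 and 1.67 against ESCs. Sox18 and Sox10 had 1.23 ± 0.276 and 0.769 ± 0.303 RPKM in TETTKO.

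The labelled cell types were checked against marker genes. All 5 ESC markers (Pou5f1, Nanog, Zfp42, Esrrb and Klf4) were called lower in NPs, against 9.98% of all genes tested. Their summed level was 1203, 1232 and 1189 RPKM in the ESC libraries and 5.71, 8.49 and 4.90 in the NP libraries. Of 5 NP markers, Pax6, Nes and Sox1 were called higher in NPs, against 12.4% of all genes tested, while Tubb3 and Ncam1 were not called. In TETTKO 1 of 5 ESC markers was called lower, Zfp42 with a log2 fold change of −2.60, against 1.21% of all genes tested. Their summed level was 674, 701 and 813 RPKM. The NP libraries also held markers of endoderm. Of 4, Foxa2, Gata6 and Sox17 itself were called higher, against 12.4% of all genes tested, and Gata4 was not. Their summed level was 18.5, 19.5 and 22.4 RPKM in NPs against 1.6, 1.83 and 1.04 in ESCs. Foxa2 was the most abundant in each NP library, and none of the 4 was at 0 there. Their part in the Sox17 level of NPs was not tested. Of 3 mesoderm markers T was not called, and Kdr and Mesp1 were below the filter in both comparisons, with a summed level in NPs of 0.718, 1.17 and 0.415 RPKM led by Kdr.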

How the data were processed

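For Hi-TransMet, the authors deposited read counts and methylated read counts per fragment, CpG and run, after alignment with Bismark. For RNA-seq the authors deposited a count for every gene, made with STAR and featureCounts 1.6.2 on GRCm38 with Ensembl 89 models. Fragments were found by name, and the runs of each pool were added up. CpGs needed at least 10 reads in both fragments. Intervals of a fragment use its median read number per CpG. Wald chi-square tests and two-sided Fisher's exact tests were adjusted by Benjamini-Hochberg over all motifs, pairs of motifs or CpGs of a pool. Values within runs are weighted means over runs with at least 10 reads of both fragments. Their intervals use the median counting variance over CpGs, so they can differ from the interval of a single run. ESCs −SssI and NPs +SssI each have 2 deposited samples that share a table, which was used as 1 pool. In each of these pools the title of 1 sample names a Sanger sequencer, and the titles of the other pools name none. Which runs belong to that sample is not stated. Per-sample columns without a matching sample numbered 0. RNA counts were fitted with edgeR 4.0.16 (R 4.3.3; quasi-likelihood F-test, TMM, genes with at least 1 RPKM in a library), and DESeq2 1.42.0 was an alternative. Python 3.11.15, numpy 2.4.6, scipy 1.17.1 and pandas 2.3.3 were used, and the tests were checked on simulated data. Named CpGs are the ends of HMRs, the CpGs nearest to the motif and those with the lowest and highest difference; named genes are the 3 factors, other Sox genes with a mean of at least 1 RPKM, and the markers, and the other CpGs and genes named were chosen after their values were seen. Members and lists were chosen with earlier results of these data known. The study's DSS model was not run. Alternatives were minimums of 20 and 50 reads, other references, single amplicons, values within runs, a difference of 20 points, a window of 50 bp, other scalings, no filter, a replicate block, and each run or library left out. The same-run reference and counting look-alike runs once were added after seeing the data.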

Additional observations from a re-analysis of the deposited data

Results flagged for a closer look

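For 8 of the 15 comparisons of pools at the SOX motifs, the test of the difference itself found that the WT minus Sc difference was not the same in the 2 pools. Over the 26 motifs the same tests called 34.6% to 53.8% of motifs in a comparison, so the count at the SOX motifs is near that of all motifs. Between NPs and ESCs −SssI these were SOX9 (33.6 points) and SOX17 (17.5). Between NPs and ESCs +SssI they were SOX2 (20.9) and SOX9 (25.9). Between TET TKO and wild type ESCs +SssI they were SOX9 (41.3) and SOX17 (60.5). Between premethylated and unmethylated FR1, SOX17 differed in ESCs (−34.1) and in NPs (−48.7). Each compares 1 pool with 1 pool, the runs that held WT and Sc reads differed between the pools, and within the runs that held both fragments some values were not called, as at SOX17 in ESCs −SssI with 0.151 against −15.4 over all runs.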

How the results depend on the processing

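Of 1037 values recomputed under the alternatives, 884 kept their direction and their side of the threshold, or their count within 1.5 times. With a minimum of 20 reads all 45 values recomputed did so. Another 15 of them, with CpGs outside the motif alone, equal the values reported, since the SOX fragments have no CpG value inside the motif, and say nothing about stability. Differences are WT minus Sc in points, and the cause of the changes below was not tested unless fewer CpGs or reads are named. A left-out run can remove an amplicon, so that the CpGs differ. Within runs SOX2 in ESCs −SssI has no value, SOX9 in ESCs −SssI, SOX2 in ESCs +SssI and SOX2 and SOX9 in NPs +SssI have the 5 downstream CpGs alone, and SOX17 in both −SssI pools has the 18 upstream ones. Sox9 and Sox17 were below the filter in TETTKO, and the depth of 19 to 75 reads at several SOX fragments limits the intervals.

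With a minimum of 50 reads, SOX9 in NPs −SssI was at −3.30 (not called) with 4 CpGs called lower and 0 HMRs, since its downstream amplicon was left out, and SOX2 in ESCs +SssI had 1 HMR. With all calls together SOX9 in NPs −SssI was at −5.07 (not called). Against the mean of all Sc fragments SOX17 was at −1.55 in ESCs −SssI (not called) and at 8.16 in TET TKO (called), and SOX2 in NPs +SssI turned to −1.25. Against the fragment without a motif SOX17 in ESCs −SssI (−4.29), SOX2 in NPs −SssI (−7.20) and SOX9 in NPs −SssI (−8.57) were not called, and SOX2 in NPs +SssI turned to −2.43.

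Against the same-run mean of Sc fragments, chosen after seeing the data, SOX2 in ESCs −SssI turned to 1.63, SOX9 in ESCs moved to −12.3 under −SssI and −15.1 under +SssI, and SOX2 in ESCs +SssI moved to −0.0958. With look-alike runs counted once, also chosen after seeing the data, SOX2 (−7.62) and SOX9 (−8.95) in NPs −SssI and SOX2 between NPs and ESCs +SssI (19.2) were not called, SOX2 minus SOX17 in ESCs −SssI turned to 0.507, and SOX17 there had 0 HMRs.

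Within runs in ESCs −SssI, SOX9 turned to 6.36 with 2 CpGs called lower and 0 HMRs, and SOX17 to 0.151 with 6 and 0. In ESCs +SssI, SOX2 was called at −24.7 with 3 CpGs, SOX9 was not called at −12.1 with 0 HMRs, and SOX17 had 13 CpGs called lower. SOX9 in NPs −SssI was not called at −6.37, with 5 CpGs and 0 HMRs. In NPs +SssI SOX9 turned to 12.1, with 0 CpGs and 0 HMRs, and SOX2 had 0 CpGs called lower.

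Upstream alone, called values were SOX2 in ESCs +SssI (−21.7), SOX2 minus SOX17 in NPs −SssI (−11.8), SOX9 between +SssI and −SssI in ESCs (23.9) and SOX2 between them in NPs (10.6). SOX9 in NPs −SssI was not called (−3.30). Signs turned for SOX2 minus SOX17 in ESCs −SssI (3.01), SOX2 minus SOX9 in NPs −SssI (−5.02) and in NPs +SssI (−3.36), SOX9 in NPs +SssI (5.61) and SOX2 between +SssI and −SssI in ESCs (−5.40). Downstream alone, SOX9 (6.31) in ESCs −SssI and SOX17 (−3.08) in NPs −SssI turned their sign, SOX2 (8.62) and SOX9 (−30.4) in NPs +SssI were called, and not called were SOX17 in ESCs −SssI (−1.42), SOX9 (−10.1) and SOX17 (−5.37) in ESCs +SssI, SOX2 in NPs −SssI (−4.12) and SOX9 in TET TKO (6.33).

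With 20 points as the limit, HMRs fell to 0 at SOX17 in ESCs −SssI, SOX2 and SOX9 in NPs −SssI and SOX2 in TET TKO, and CpGs called lower to 4 and 5 at SOX2 and SOX9 in NPs −SssI, 0 at SOX2 in NPs +SssI and 7 at SOX2 in TET TKO. With a window of 50 bp, HMRs numbered 2 at SOX2 in ESCs −SssI and TET TKO, 1 at SOX2 in ESCs +SssI (20 CpGs) and 0 at SOX2 in NPs −SssI, and CpGs called lower in NPs +SssI numbered 1 at SOX2 and 4 at SOX9.

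Leaving out each run in turn gave ranges that cross a call, a sign or 1.5 times a count. In ESCs −SssI these were SOX2 from −19.1 to −8.89, with 5 to 13 CpGs called lower and 0 to 1 HMRs, 0 to 1 HMRs at SOX17, and SOX2 minus SOX17 from −3.65 to 7.64. In ESCs +SssI they were SOX2 from −23.2 to −17.1 with 3 to 13 CpGs, SOX9 from −38.9 to −17.5 with 0 to 1 HMRs, 1 to 2 HMRs at SOX17, SOX2 minus SOX9 from −1.74 to 21.8, SOX2 minus SOX17 from 14.5 to 35.5, SOX9 minus SOX17 from 7.99 to 35.4, SOX2 minus OCT4SOX2 from 29.8 to 60.3 and SOX2 minus OCT4 from −2.57 to 13.4. In NPs −SssI they were SOX9 from −9.68 to −4.36 with 4 to 8 CpGs and 0 to 1 HMRs, SOX17 from −3.23 to 10.1 with 0 to 3 CpGs, SOX2 minus SOX9 from −4.30 to 2.34 and SOX2 minus SOX17 from −17.5 to −4.19. In NPs +SssI they were SOX2 from −0.0323 to 9.83 with 2 to 7 CpGs, SOX9 from −7.67 to 0.922 and SOX2 minus OCT4 from 5.46 to 16.7. In TET TKO they were SOX9 from 5.34 to 13.5, 4 to 13 CpGs at SOX2, and SOX2 minus OCT4SOX2 from −37.4 to 4.93.

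Values that were not called with any run left out but moved by over 1.5 times were SOX9 minus SOX17 in NPs −SssI (−18.1 to −6.24), SOX2 minus SOX9 in NPs +SssI (1.38 to 12.2), SOX9 minus SOX17 in TET TKO (2.18 to 3.63) and SOX17 in TET TKO (1.71 to 11.2). Values that kept their call but moved by over 1.5 times were SOX2 minus OCT4SOX2 in ESCs −SssI (24.8 to 40.1) and in NPs −SssI (27.8 to 56.2).

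Between pools the same ranges were 1.48 to 11.7 for SOX2 and 12.2 to 25.5 for SOX17 (NPs and ESCs −SssI), 17.2 to 27.1 for SOX2, 15.3 to 36.7 for SOX9 and −8.94 to 6.22 for SOX17 (NPs and ESCs +SssI), −0.356 to 7.60 for SOX2 (TET TKO and ESCs), −8.37 to 1.82 for SOX2, 4.25 to 25.7 for SOX9 and −37.5 to −22.3 for SOX17 (+SssI and −SssI in ESCs) and 7.38 to 17.2 for SOX2 and 1.91 to 10.5 for SOX9 (in NPs).

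In RNA-seq, the log2 fold change of Sox2 in TETTKO turned to −0.12 with library sizes alone and −0.0703 with DESeq2, and ranged from −0.0901 to 0.13 with each library left out. Genes called higher in TETTKO numbered 99 with library sizes alone. Higher and lower ones numbered 404 and 506 with DESeq2, 574 and 689 without the filter, 342 and 332 with the replicate block, and 14 to 161 and 36 to 168 with a library left out. Other Sox genes called there numbered 1 without the filter, 1 with the block and 0 to 1 with a library left out. Genes called lower in NPs numbered 2588 without the filter.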
